A study of Mus musculus with 22 samples.

Results

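The immunoglobulin light chain variable segments were taken as every gene symbol in the count table that begins with Igkv or Iglv followed by a digit. This gave 163 of the 55367 symbols, 160 of the kappa locus and 3 of the lambda locus. Their levels, the number of segments detected and the share of single segments were followed over diet and time of day in 22 RNA-seq libraries of mouse liver cells with the label HSC, which usually stands for hepatic stellate cell. The 12 Diet libraries came from mice fed CDA-HFD, a high-fat diet that lacks choline and has a defined amino acid content, and the 10 Control libraries from mice fed chow. Both diets were given from 8 weeks of age for 12 weeks, and the age is listed as 20 weeks. Another field, filled for the Diet libraries only, says 6 months. This leaves unsettled how long the mice were fed, and whether Diet and Control mice were fed equally long. Each Diet group at zeitgeber time (ZT) 0, 6, 12 and 18 held 3 libraries. In Control there were 3 libraries each at ZT0 and ZT18, and 2 each at ZT6 and ZT12. Lights went on at ZT0 and off at ZT12. No genotype, strain or sex is used here.

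A mouse B cell builds its light chain by joining 1 variable (V) segment to 1 joining (J) segment in front of a constant (C) segment, so that all descendants of a cell transcribe the same V segment unless they edit it. The kappa locus supplies most mouse light chains and the lambda locus the rest. Plasma cells, which secrete antibody, hold far more light chain mRNA per cell than resting B cells. In bulk RNA, fewer cells of a type and less RNA per cell cannot be told apart.

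The libraries held 19754805 to 41665623 counts in genes, of which 9690 to 30466 in Diet and 1358 to 8178 in Control libraries lay on light chain V segments. The labels do not tie libraries to separate animals, and p-values therefore rest on a spread between libraries that may be technical. In the principal components of all tested genes, Control ZT0 replicate 2 lay nearest to the Diet libraries and Control ZT18 replicate 1 stood apart from the rest, and results that change without them are given both ways. The labelled cell type was checked by markers. The 10 stellate cell genes summed to 63.6 to 299.5 CPM in Diet and 119 to 698 CPM in Control libraries. None of them was at 0 in a whole diet group. Dcn held the largest part, with a mean of 95 CPM in Diet and 259 CPM in Control libraries. Lrat averaged 1.78 CPM in Diet and 1.81 CPM in Control libraries, and Des 5.1 and 5.82 CPM. The 8 endothelial genes summed to 802 to 1767 CPM in Diet and 11570.1 to 23488 CPM in Control libraries. All 8 were called lower under the diet, as were 24.9% of all tested genes. The 8 T cell genes summed to 1698 to 4143 CPM in Diet and 339 to 1554 CPM in Control libraries. On both diets the endothelial sums lay above the stellate sums, so these markers do not bear out a stellate reading of the label HSC. Markers of other cell types thus differed between the diets, and their part in the results was not tested. CPM are counts scaled to a common library total, here that of tested genes after TMM scaling.

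GENCODE M21, on GRCm38, annotates all 163 segments. The 160 kappa segments span chr6:67555497-70704177, with 75 on the plus and 85 on the minus strand, and 100 are annotated as V genes and 60 as V pseudogenes. The 3 lambda segments are V genes on the minus strand within chr16:19085017-19260859. Of the 163, 100 passed the filter on low counts and were tested, namely 97 kappa and 3 lambda segments, or 94 genes and 6 pseudogenes. The other 63, of which 54 are pseudogenes and 9 are genes, held at most 67 counts over all libraries, and 15 pseudogenes had no count in any library. The V exons of the 100 tested segments are 293 to 324 bases long, so length differs little between segments compared by CPM or share.

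The 6 kappa segments below carry the results on single segments: 4 took at least 10% of the V counts in a Diet library, and Igkv14-126 and Igkv4-86 were prominent in Control libraries. Each is the coding part of the V exon, or its last 300 bases, from the GENCODE M21 transcripts. Capitals mark the germline bases after the last in-frame cysteine codon, where complementarity-determining region 3 (CDR3) begins. Igkv1-88 lies at chr6:68862265-68862564 on the minus strand, Igkv6-15 at chr6:70406469-70406766 on the minus strand and Igkv8-30 at chr6:70117061-70117360 on the minus strand. Igkv17-127 lies at chr6:67861362-67861659 on the plus strand, Igkv14-126 at chr6:67896345-67896642 on the plus strand and Igkv4-86 at chr6:68910411-68910704 on the minus strand.
Igkv1-88: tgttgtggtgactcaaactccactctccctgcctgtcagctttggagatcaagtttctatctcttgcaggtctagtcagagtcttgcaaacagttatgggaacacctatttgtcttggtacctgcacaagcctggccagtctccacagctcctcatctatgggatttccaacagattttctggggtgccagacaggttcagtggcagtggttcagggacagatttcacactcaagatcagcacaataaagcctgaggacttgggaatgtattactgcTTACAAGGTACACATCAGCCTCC
Igkv6-15: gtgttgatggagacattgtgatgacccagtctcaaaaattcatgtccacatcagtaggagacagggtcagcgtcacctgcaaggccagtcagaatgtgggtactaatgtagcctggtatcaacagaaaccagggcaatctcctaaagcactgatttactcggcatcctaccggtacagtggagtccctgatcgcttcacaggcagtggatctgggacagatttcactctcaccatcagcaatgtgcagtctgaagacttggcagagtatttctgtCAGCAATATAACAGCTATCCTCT
Igkv8-30: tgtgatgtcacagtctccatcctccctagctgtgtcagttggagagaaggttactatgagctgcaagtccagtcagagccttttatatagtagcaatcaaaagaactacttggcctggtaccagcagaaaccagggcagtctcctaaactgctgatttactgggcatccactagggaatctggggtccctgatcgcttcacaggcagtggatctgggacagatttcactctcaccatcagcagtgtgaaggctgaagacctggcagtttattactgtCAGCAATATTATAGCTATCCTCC
Igkv17-127: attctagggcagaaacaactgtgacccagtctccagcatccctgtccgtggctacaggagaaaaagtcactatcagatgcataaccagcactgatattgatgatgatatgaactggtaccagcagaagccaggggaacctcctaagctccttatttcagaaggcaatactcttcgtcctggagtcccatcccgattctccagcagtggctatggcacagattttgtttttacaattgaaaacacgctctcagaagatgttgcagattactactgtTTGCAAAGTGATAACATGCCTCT
Igkv14-126: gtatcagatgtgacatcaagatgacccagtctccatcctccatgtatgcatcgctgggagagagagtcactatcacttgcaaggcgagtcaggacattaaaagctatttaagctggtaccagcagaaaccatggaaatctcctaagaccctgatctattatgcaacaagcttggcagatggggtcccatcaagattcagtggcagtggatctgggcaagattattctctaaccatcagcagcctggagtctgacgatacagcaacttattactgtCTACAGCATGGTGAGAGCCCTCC
Igkv4-86: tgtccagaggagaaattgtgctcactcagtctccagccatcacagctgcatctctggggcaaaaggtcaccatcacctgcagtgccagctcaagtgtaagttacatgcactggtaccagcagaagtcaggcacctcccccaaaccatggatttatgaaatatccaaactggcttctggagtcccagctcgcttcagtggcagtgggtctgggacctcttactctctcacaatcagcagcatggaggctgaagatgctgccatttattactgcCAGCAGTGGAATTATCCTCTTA

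The 2 lambda segments Iglv1 (chr16:19085017-19085316, minus strand) and Iglv2 (chr16:19260401-19260700, minus strand) show how alike members can be. They are 97% identical over 305 bases, with 9 differences, and capitals mark the 8 differing bases in the 300 printed.
Iglv1: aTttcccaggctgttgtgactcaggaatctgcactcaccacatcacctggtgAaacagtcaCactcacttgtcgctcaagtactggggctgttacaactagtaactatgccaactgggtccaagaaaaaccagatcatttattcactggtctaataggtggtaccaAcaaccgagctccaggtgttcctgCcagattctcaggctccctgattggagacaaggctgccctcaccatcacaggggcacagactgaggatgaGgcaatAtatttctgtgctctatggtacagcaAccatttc
Iglv2: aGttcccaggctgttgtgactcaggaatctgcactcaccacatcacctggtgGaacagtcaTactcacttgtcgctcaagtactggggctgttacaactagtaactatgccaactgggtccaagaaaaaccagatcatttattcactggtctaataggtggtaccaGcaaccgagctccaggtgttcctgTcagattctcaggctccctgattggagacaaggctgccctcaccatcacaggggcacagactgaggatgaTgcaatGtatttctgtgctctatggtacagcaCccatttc
A read that covers none of the 9 differing bases cannot be assigned to 1 of the pair, and how the authors' counting treated such reads is not given in the sources used here. Of the 100 tested segments, 50 have another member at 95% identity or more. In 24 no run of 50 bases is shared with another member, and in 14 at least as many such runs are shared as are not. Igkv1-88 is among the distinct ones: its nearest member, Igkv1-110, is 85.3% identical and shares no run of 50 bases with it. The values of segments with a near copy, such as Igkv17-127 (98% identical to Igkv17-121), are uncertain to the extent that reads were split or dropped.

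Kappa and lambda V transcripts were both higher under the diet, in every Diet library and at all 4 times. The summed kappa V level was lowest at 329.6, median 525 and highest at 942 CPM in the 12 Diet libraries, against 56.2, 133 and 189.6 CPM in the 10 Control libraries. The lowest Diet library therefore lay above the highest Control library. Averaged over the 4 times the difference was 2.13 on the log2 scale, a 4.37-fold higher sum under the diet, with an SD within groups of 0.5. The summed lambda V level was 35.3, 56.6 and 88.6 CPM at its lowest, median and highest in Diet libraries, against 9.48, 15.2 and 27.6 CPM in Control libraries. These sums did not overlap either, and the log2 difference was 1.78, or 3.44-fold. As scores over the members, these sums carry no p.

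**Figure D1:**
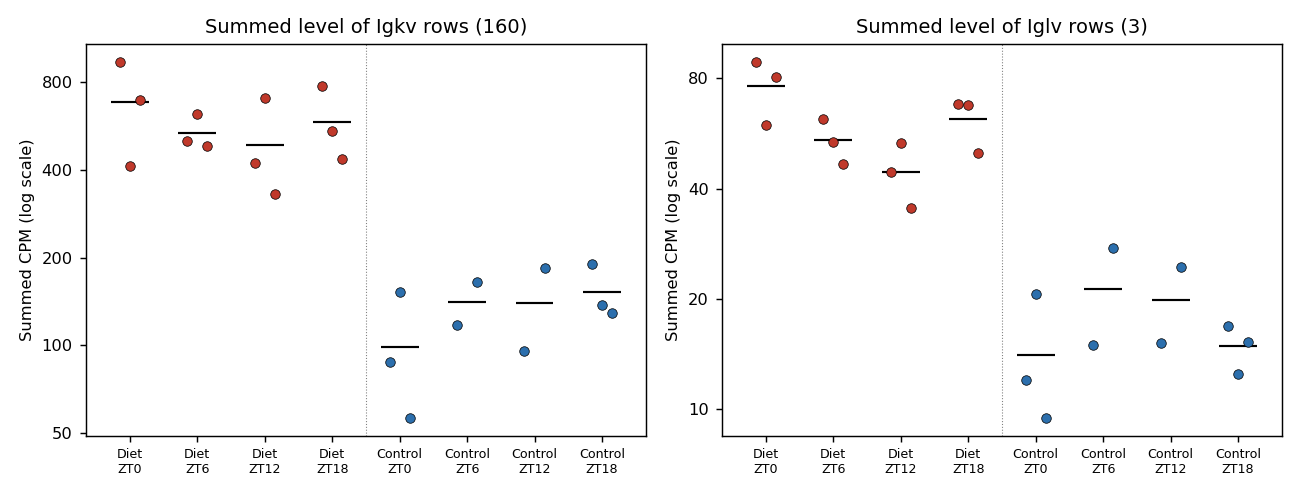
Summed CPM of the 160 kappa (left) and 3 lambda (right) V segments, on log axes, by diet and zeitgeber time. Points are libraries, red for Diet and blue for Control, and bars are group means; all 12 Diet libraries lie above all 10 Control libraries in both panels.

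By time, the kappa sum differed by 2.84 on the log2 scale at ZT0, by 1.94 at ZT6, by 1.80 at ZT12 and by 1.93 at ZT18. The mean at ZT0 was 685 ± 264 CPM in Diet (SD, n = 3) and 98.6 ± 49 CPM in Control libraries (SD, n = 3), the highest Diet mean and the lowest Control mean of the 4 times. The 3 Diet libraries at ZT0 had 942, 414 and 698 CPM and the 3 Control libraries 87.5, 152 and 56.2 CPM, so the spread within ZT0 was wide in both. Whether the difference depends on time was tested per segment, as given below. The lambda sum differed by 2.50 at ZT0, by 1.40 at ZT6, by 1.18 at ZT12 and by 2.05 at ZT18 on the log2 scale. Without Control ZT0 replicate 2 and Control ZT18 replicate 1 the differences over all times were 2.26 for kappa and 1.89 for lambda.

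The segments downstream in the same transcripts moved with the V segments. Igkc, the only kappa constant segment, averaged 1277 ± 406 CPM in Diet (SD, n = 12) and 286 ± 84 CPM in Control libraries (SD, n = 10), a log2 change of 2.14 ± 0.19 (SE). Kappa V counts per Igkc count were 0.403 to 0.494 in Diet and 0.419 to 0.496 in Control libraries, and these ranges overlap almost wholly. All 4 tested light chain constant segments were called higher under the diet by edgeR's quasi-likelihood test (adjusted p under 0.05), Iglc1 by 1.76, Iglc2 by 1.84 and Iglc3 by 2.34 on the log2 scale. Iglc4 was not tested. All 8 tested joining segments were called higher, with log2 changes of 1.58 for Iglj1 to 2.32 for Igkj5, while Iglj2 and Iglj4 had no count in any library. Of all tested genes 27.5% were called higher. The use of kappa joining segments was compared by its medians, with no test. Igkj1 held 37% of the summed counts of Igkj1, Igkj2, Igkj4 and Igkj5 in Diet and 36.2% in Control libraries, and Igkj2 25.2% in Diet and 25.9% in Control libraries. Igkj4 held 14.9% in Diet and 17.6% in Control libraries, and Igkj5 22.2% in Diet and 19.8% in Control libraries, with overlapping ranges for each of the 4.

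Lambda segments held a median of 9.59% of V counts in Diet libraries (6.99% to 12.6%) and 11.9% in Control libraries (8.2% to 14.4%). Among constant segments the lambda share was 10.5% in Diet (7.93% to 13.6%) and 11.1% in Control libraries (8.58% to 18.9%). Over all times both ranges overlap. At ZT6 and at ZT12, with 2 Control libraries each, the lambda share of V counts did not. It was 7.96% to 11% in Diet and 11.4% to 14.4% in Control libraries at ZT6. At ZT12 it was 6.99% to 9.68% in Diet and 11.8% to 13.7% in Control libraries. The share among constant segments did overlap at both times. It was 8.75% to 11.1% in Diet and 10.8% to 11.4% in Control libraries at ZT6. At ZT12 it was 8.1% to 12.3% in Diet and 10.3% to 14.1% in Control libraries. Pseudogenes held 0.27% to 0.678% of V counts in Diet and 0.22% to 1.39% in Control libraries.

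Tested one by one, 90 of the 100 tested segments were called for diet over all times, 89 higher and 1 lower, in edgeR's quasi-likelihood test, with p-values adjusted by Benjamini-Hochberg over all 22409 tested genes. Over all tested genes 52.4% were called, 27.5% higher and 24.9% lower. The median log2 change of the 100 segments was 2.62, against 0.08 for all tested genes. In 18 of the 100 all Control libraries of at least 1 time were at 0, and their fitted changes depend on the prior count. With those 18 set to a bound of 3 counts over such a group, the median was 2.42. By kind, 84 of the 94 tested genes and 5 of the 6 tested pseudogenes were called higher. The 163 segments were chosen by name alone, but the 100 tested are those with enough counts in some group. For some that group was a Diet group only: Igkv4-77, Igkv8-34 and Igkv11-125 reached at most 0.25, 0.112 and 0.192 CPM in Control libraries. Such segments could hardly be called lower, so the counts of higher calls rest in part on the filter.

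Heavy chain V segments were mostly higher too, with 78 of 92 tested Ighv segments called higher and 1 lower, a median log2 change of 2.41. T cell receptor V segments were also higher, 45 of 57 tested Trav (median 2.91) and 18 of 22 tested Trbv segments (median 2.31). The 15 B cell genes were all called higher, with a median log2 change of 2.25. Their sum was 873 to 1819.5 CPM in Diet and 151 to 445 CPM in Control libraries, with no B cell gene at 0 in either. The part of B cell number in the light chain result was not tested.

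Of the 14 plasma cell genes 10 were called higher and 1 lower. Jchain, which links antibody chains into polymers, averaged 168 ± 53.7 CPM in Diet (SD, n = 12) and 43.4 CPM in Control libraries, and the transcription factor Irf4 changed by 2.48 on the log2 scale. Xbp1 and Txndc5, which serve secretion in many cell types, changed by -0.08 and -0.01 and were not called. Tnfrsf17, a receptor largely restricted to plasma cells and late B cells, averaged 0.436 CPM in Diet and 0.318 CPM in Control libraries and was not called either (log2 change 0.17 ± 0.84, SE; edgeR adjusted p = 0.898). The one lower was Fkbp11, at -0.59. Of the 8 heavy chain constant segments, 7 were called higher, including Ighm (2.06), Igha (2.43) and Ighg2c (3.62). Of the 7 genes for V(D)J recombination and the surrogate light chain, which act in developing B cells, 5 were tested and 3 called higher. Dntt, which adds bases at the joins, averaged 51.9 ± 12.4 CPM in Diet (SD, n = 12) and 12.9 CPM in Control libraries. Rag1 and Vpreb2 had too few counts to be tested, and Rag2 and Vpreb2 had no count in any Control library.

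Single segments varied far more between libraries than most genes, and so the number of libraries with a high value differs from segment to segment. The median SD of log2 CPM within groups was 1.09 for the 100 tested segments and 0.55 for all tested genes. Among genes of the same abundance, with a mean log2 CPM of -1.39 to 1.77, it was 1.2 for 50 segments and 0.88 for 5407 genes. In 12 of the 100 segments every Diet library lay above every Control library, 12%, against 7.35% of all tested genes. In none did every Diet library lie below, against 9.78% of all tested genes. The 12 were Iglv3, Igkv1-99, Igkv4-57, Igkv4-77, Igkv6-32, Igkv10-94, Igkv10-96, Igkv12-46, Igkv12-98, Igkv13-84, Igkv16-104 and Igkv17-127. Of these, Igkv4-77 is a pseudogene that passed the filter through Diet libraries.

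The steadiest difference was that of a lambda segment. Iglv3 had 8.93, 11.3 and 16 CPM in the Diet libraries at ZT0, 14, 11.5 and 10.7 at ZT6, 11.6, 15.2 and 15.4 at ZT12 and 12.4, 17 and 15.9 at ZT18. In Control libraries it had 4.13, 7.09 and 5.03 CPM at ZT0, 1.09 and 2.12 at ZT6, 2.41 and 3 at ZT12 and 2, 1.31 and 2.02 at ZT18. The Diet values lay between 8.93 and 17 CPM, and the Control values at ZT0 were all above those at the other times. The log2 change was 2.38 ± 0.17 (SE) with an adjusted p of 1.2e-10 (edgeR), the smallest of all segments.

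Iglv1, the lambda segment with the most counts, averaged 38.2 ± 14.9 CPM in Diet (SD, n = 12) and 10.6 ± 4.43 CPM in Control libraries (SD, n = 10). Its log2 change was 1.81 ± 0.18 (SE; edgeR adjusted p = 2.18e-08), and 11 of 12 Diet libraries lay above every Control library. Iglv2, its near copy, averaged 7.55 ± 3.18 CPM in Diet (SD, n = 12) and 3.32 ± 2.3 CPM in Control libraries (SD, n = 10). Its log2 change of 1.10 ± 0.37 (SE) had an adjusted p of 0.0173 in edgeR, and 0.0557 without Control ZT6 replicate 1.

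Igkv1-88 had the largest fitted change and very uneven values under the diet. It was at 97.4, 1.16 and 194 CPM in the 3 Diet libraries at ZT0, 0.962, 21.2 and 1.37 at ZT6, 0.358, 55.2 and 13 at ZT12 and 8.51, 40.3 and 7.3 at ZT18. In the 10 Control libraries its lowest, median and highest values were 0, 0.198 and 2.39 CPM. Of the 12 Diet libraries 8 lay above every Control library, and the lowest Diet values lay among those of Control libraries. The log2 change was 5.98 ± 1.06 (SE; edgeR adjusted p = 6.83e-05), and between 5.28 and 7.32 with other settings or 1 library left out. Igkv2-112 was 0.806, 4.06 and 21.6 CPM at its lowest, median and highest in Diet, against 0, 0.0922 and 0.999 CPM in Control libraries, with a log2 change of 5.12 ± 0.64 (SE; edgeR adjusted p = 7.18e-07).

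The other 6 segments among the 8 with the largest fitted changes, Igkv7-33, Igkv8-34, Igkv1-133, Igkv11-125, Igkv1-99 and Igkv4-63, were at 0 in all Control libraries of at least 1 time, so their folds are not given. Igkv7-33, for example, had counts in 9 of 12 Diet and 5 of 10 Control libraries, with medians of 0.351 CPM in Diet and 0.0127 CPM in Control libraries and a highest value of 32.4 CPM in a Diet library. Its adjusted p was 0.00628 in edgeR and 1 without Diet ZT12 replicate 1.

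**Figure D2:**
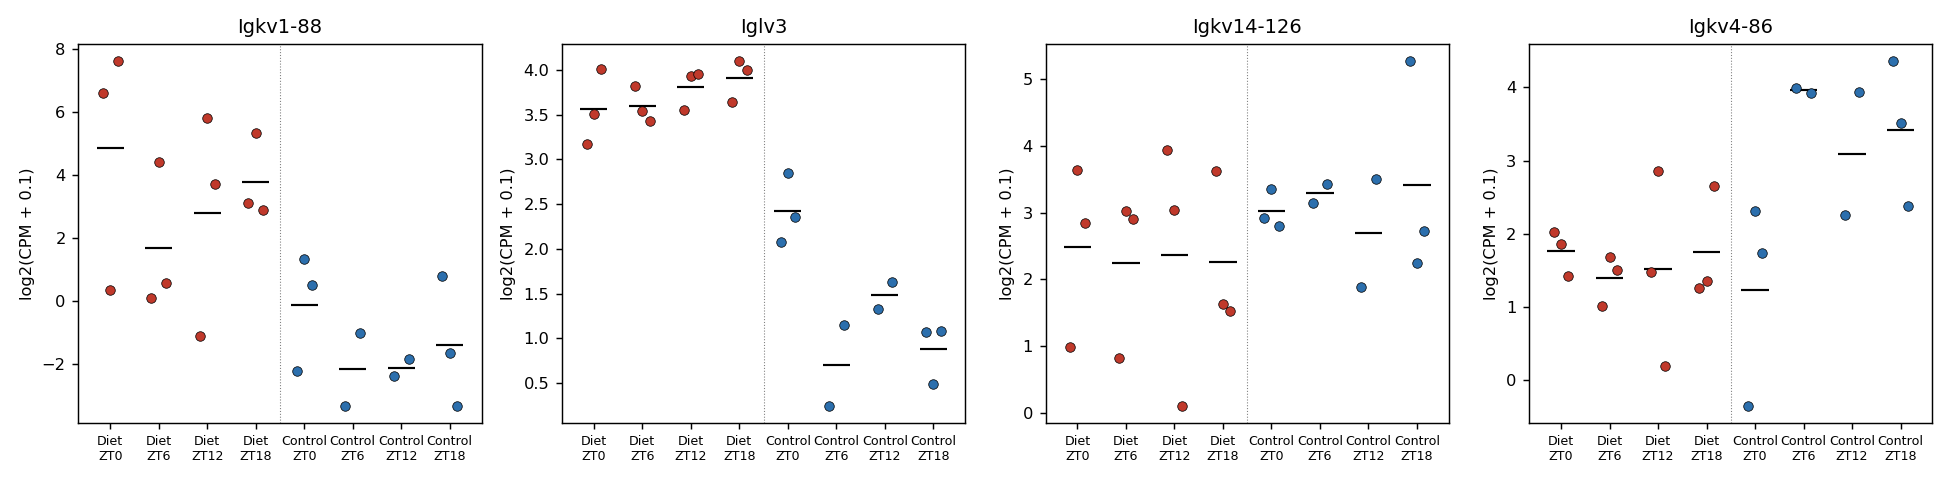
Level of Igkv1-88, Iglv3, Igkv14-126 and Igkv4-86 in each library as log2(CPM + 0.1), with a separate vertical scale per panel. Points are libraries, red for Diet and blue for Control, and bars are group means; Iglv3 separates the diets, Igkv1-88 spreads widely under the diet, and Igkv14-126 and Igkv4-86 overlap.

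The kappa segments with the highest mean level over all libraries were called higher in each case. This mean takes in the Diet libraries, where kappa levels were higher, so the ranking itself favours segments that are high under the diet. Igkv6-15 was 10.5, 19.7 and 137 CPM at its lowest, median and highest in Diet and 1.4, 3.25 and 12.3 CPM in Control libraries, a log2 change of 2.56 ± 0.44 (SE; edgeR adjusted p = 4.82e-05). Igkv10-96 was 15.1, 20.1 and 30 CPM in Diet and 1.07, 2.23 and 7.41 CPM in Control libraries, a change of 2.91 ± 0.28 (SE) on the log2 scale. Igkv10-96 was even among Diet libraries, while Igkv6-15 owed its highest value to Diet ZT0 replicate 1. Others of this group were Igkv12-46 (3.24), Igkv12-44 (3.40), Igkv8-30 (3.05), Igkv3-2 (2.89), Igkv19-93 (2.46), Igkv14-111 (2.41), Igkv1-110 (1.98) and Igkv1-117 (1.15 ± 0.28), with log2 changes in parentheses. Of segments first in a library, Igkv16-104 changed by 3.03 ± 0.39 (SE), Igkv8-24 by 1.61 ± 0.50 (SE; edgeR adjusted p = 0.0106) and Igkv4-61 by 2.43 ± 0.87 (SE; edgeR adjusted p = 0.0245) on the log2 scale. Igkv4-61 was no longer called without any 1 of Control ZT6 replicate 2, Control ZT12 replicate 2, Diet ZT6 replicate 1 or Diet ZT12 replicate 2. Igkv6-32, which had the smallest adjusted p among kappa segments, averaged 11.8 ± 7.26 CPM in Diet (SD, n = 12) and 1.06 ± 0.723 CPM in Control libraries (SD, n = 10).

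Igkv4-86 was the one segment called lower. It was 1.05, 2.71 and 7.17 CPM at its lowest, median and highest in Diet, against 0.688, 8.19 and 20.4 CPM in Control libraries. The groups overlap, since Control ZT0 libraries had 0.688, 4.88 and 3.24 CPM, while both ZT6 libraries had 15.8 and 15.1 CPM. The log2 change was -1.39 ± 0.35 (SE; edgeR adjusted p = 0.00213), and it was called lower in all 28 alternatives, which include each library left out in turn. As a share of V counts Igkv4-86 averaged 0.545% in Diet and 6.08% in Control libraries.

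Igkv14-126 was the other segment with a negative fitted change. It was 0.979, 7.25 and 15.3 CPM in Diet and 3.59, 8.1 and 38.5 CPM in Control libraries, at its lowest, median and highest. The change of -0.58 ± 0.46 (SE) was not called (edgeR adjusted p = 0.316). Its share of V counts averaged 1.14% in Diet and 7.09% in Control libraries, where the summed level of all segments was lower. In mice, Igkv14-126 is known as the light chain partner of Ighv11-2 in B-1 cells that bind phosphatidylcholine, and Igkv4-91 as the partner of Ighv12-3. Igkv4-91 averaged 9.81 ± 6.59 CPM in Diet (SD, n = 12) and 2.65 ± 3.47 CPM in Control libraries (SD, n = 10), a log2 change of 2.01 ± 0.50 (SE; edgeR adjusted p = 0.00197). Besides Igkv14-126, 9 tested segments were not called, all with positive fitted changes, among them Igkv12-38, Igkv10-95, Igkv1-122 and Igkv3-5.

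More segments were detected under the diet, and at 3 of the 4 times this held once the number of V counts was fixed. With at least 1 count, 101 to 116 segments were detected per Diet library (median 108) and 78 to 101 per Control library (median 86.5). Of the 100 tested segments, 84 had a count in all 12 Diet libraries and 52 in all 10 Control libraries. At a fixed 1000 V counts the expected number was 75.2 to 85 in Diet (median 82.8) and 61.5 to 85.8 in Control libraries (median 74.2). Over all times these ranges overlap, and the highest value belonged to a Control library at ZT0. Within a time they overlapped at ZT0 only: the numbers were 77.6 to 84.2 in Diet and 75.8 to 77 in Control libraries at ZT6, 80.5 to 83.6 in Diet and 61.5 to 71.4 in Control libraries at ZT12, and 82.9 to 85 in Diet and 67 to 72.5 in Control libraries at ZT18. At ZT6 the ranges nearly touched, with 77 as the highest Control and 77.6 as the lowest Diet value. In time order from ZT0 to ZT18, the mean at 1000 V counts was 78.8, 81.6, 82.3 and 83.8 in Diet libraries, and 82.3, 76.4, 66.5 and 70.4 in Control libraries. A fixed number of V counts does not fix the number of B cells sampled, and B cell genes were lower in Control libraries. The part of B cell number in these values was not tested.

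By the share of the 10 first segments and an index of evenness, both given below, the repertoire was more even under the diet at ZT6, ZT12 and ZT18. It was not so at ZT0. For the segment with the most counts, the share of V counts was 5.49% to 24.9% in Diet (median 8.13%) and 7.49% to 23.2% in Control libraries (median 10.8%), a difference of medians of -2.67 percentage points. The 10 first segments together held 36.8% to 59.7% in Diet (median 45.3%) and 45.1% to 69.5% in Control libraries (median 56.2%). The inverse Simpson index, the number of equally used segments that would give the same concentration, was 12.8 to 42 in Diet (median 32.7) and 12 to 34.4 in Control libraries (median 23.8). Over all times all of these ranges overlap. Within a time, the share of the 10 first segments overlapped at ZT0 only: it was 43.3% to 48.3% in Diet and 51.5% to 60% in Control libraries at ZT6, 38.9% to 48.1% in Diet and 53.9% to 69.5% in Control libraries at ZT12, and 36.8% to 38.3% in Diet and 58.4% to 63.8% in Control libraries at ZT18. The share of the first segment alone did not overlap at ZT18, with 5.83% to 6.74% in Diet and 7.66% to 18.6% in Control libraries, and overlapped at the other 3 times. The index was lowest on average at ZT0 in Diet libraries (20.5 ± 8.66, SD, n = 3) and highest at ZT0 in Control libraries (30.2 ± 3.66, SD, n = 3), and at ZT18 it was 40.5 ± 1.55 in Diet (SD, n = 3) and 19.5 ± 4.06 in Control libraries (SD, n = 3). The index overlapped between the diets at ZT0 only: it was 26.8 to 35.6 in Diet and 19.8 to 26.1 in Control libraries at ZT6, and 24.4 to 40.2 in Diet and 12 to 24.1 in Control libraries at ZT12. The index ranges of the 2 diets nearly touched at ZT6 and at ZT12. These groups hold 2 or 3 libraries each, and as scores over the segments the values carry no p. The part of B cell number in the evenness was not tested either.

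**Figure D3:**
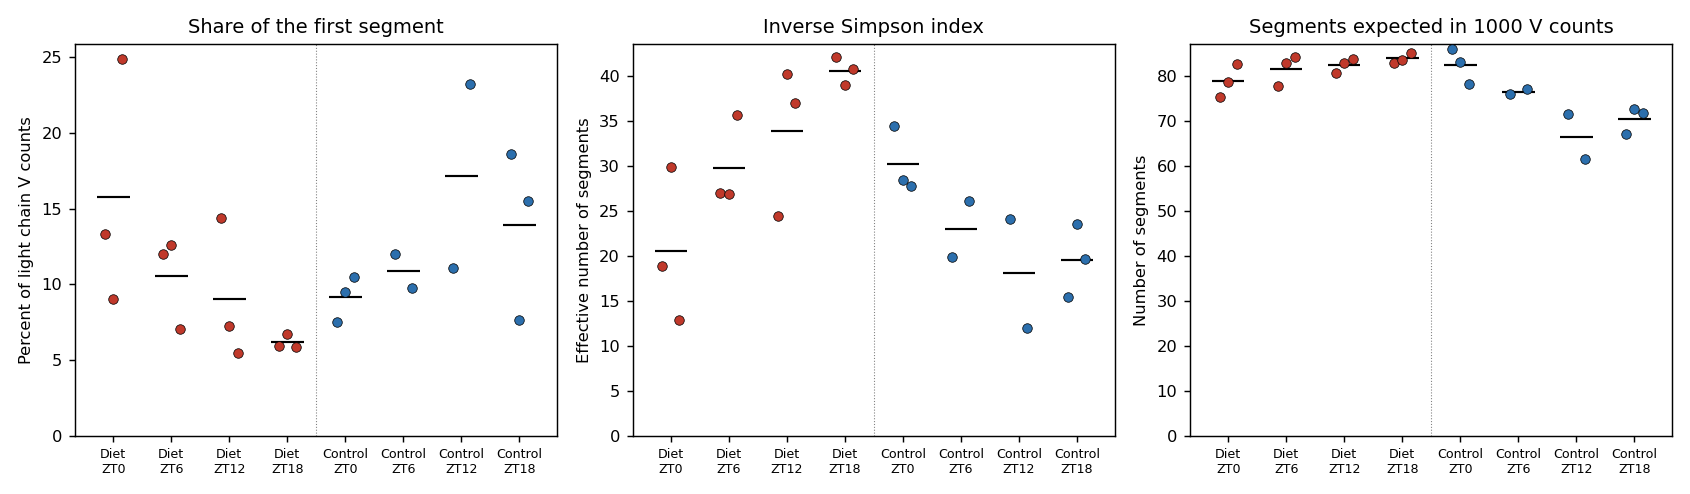
Share of V counts of the first segment in percent (left), inverse Simpson index (middle) and segments expected in 1000 V counts (right) by diet and zeitgeber time. Points are libraries, red for Diet and blue for Control, and bars are group means; the index at ZT18 lies between 38.9 and 42 in Diet libraries and between 15.4 and 23.5 in Control libraries.

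Which segment came first differed from library to library, with 12 different segments in the 22 libraries. Iglv1 was first in 2 Diet and 2 Control libraries and Igkv3-2 in 1 of each. Igkv1-88, Igkv6-15, Igkv8-30 and Igkv12-46 were each first in 2 Diet and 0 Control libraries, and Igkv16-104 in 1 Diet library. Igkv14-126 was first in 3 Control and 0 Diet libraries, and Igkv4-86, Igkv4-61, Igkv8-24 and Igkv19-93 in 1 Control library each.

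A segment with at least 10% of V counts occurred in 5 of 12 Diet and 6 of 10 Control libraries. In Diet ZT0 replicate 3, Igkv1-88 held 24.9% (95% exact Clopper-Pearson interval 24.2% to 25.5%), from 4047 counts. In Diet ZT0 replicate 1, Igkv6-15 held 13.3% with 4047 counts and Igkv17-127 10.2% with 3101 counts. Igkv17-127 was at 105 CPM there and at 3.43 to 8.63 CPM in the other 11 Diet libraries. Igkv8-30 held 12% in Diet ZT6 replicate 1 and 12.6% in Diet ZT6 replicate 2, at 68 and 84.8 CPM, and its median share in the other Diet libraries was 1.77%. Igkv6-15 held 14.4% in Diet ZT12 replicate 1. Intervals cover counting error only, since reads without molecular identifiers are not independent molecules.

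In Control libraries the largest share was that of Igkv3-2 in ZT12 replicate 2, 23.2% (22.3% to 24.2%) from 1901 counts. It was at 48.4 CPM there and at most 5.39 CPM in the other 9 Control libraries. Igkv14-126 held 18.6% (17.6% to 19.8%) in ZT18 replicate 1, one of the libraries that stood apart, and 10.5% in ZT0 replicate 3. Igkv19-93 held 15.5% in ZT18 replicate 3, Igkv4-86 12% in ZT6 replicate 1 and Iglv1 11.1% in ZT12 replicate 1. In all, 9 different segments reached 10%, 4 in Diet and 5 in Control libraries, and none did so on both diets.

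**Figure D4:**
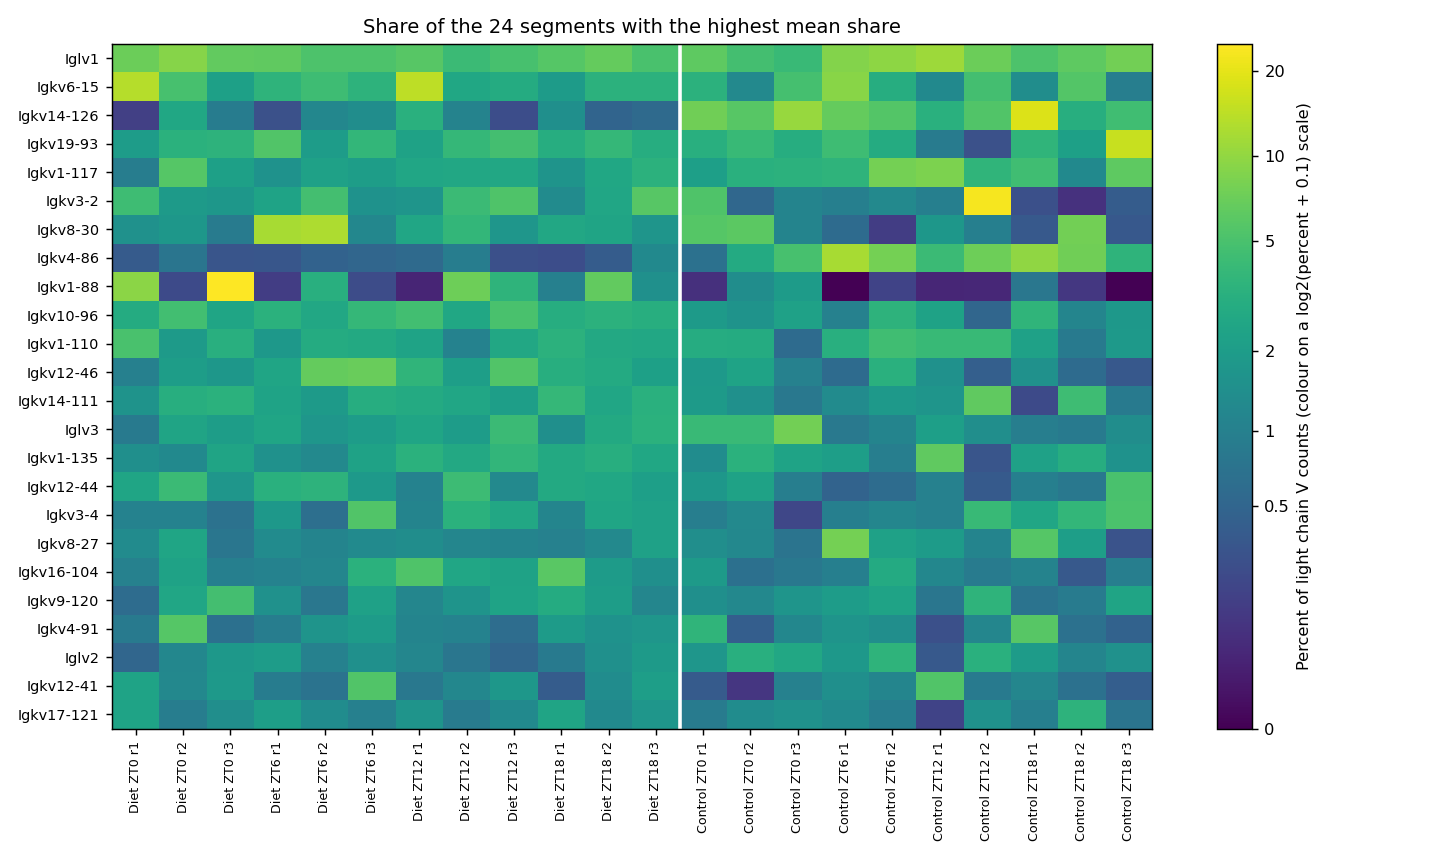
Percent of light chain V counts held by the 24 segments with the highest mean share, with segments down the page and libraries across, Diet left of Control. Lighter colour is a higher share on a log2(percent + 0.1) scale; Iglv1 is evenly high, while Igkv1-88, Igkv3-2 and Igkv8-30 are high in some libraries only.

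The rank order of segments was more alike among Diet libraries. Over the 148 segments with a count, Spearman's rho between 2 libraries was 0.85 to 0.92 (median 0.89) in the 66 Diet pairs and 0.64 to 0.83 (median 0.74) in the 45 Control pairs. Between a Diet and a Control library it was 0.70 to 0.89 (median 0.79) over 120 pairs. Control libraries held fewer V counts, and the part of depth in these descriptive values was not tested.

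Along the kappa locus the higher level was spread over its whole length. V segments lie 18.4 to 3166 kb from Igkj1, the first joining segment. Segments nearer than 1000 kb held a median of 43.4% of kappa V counts in Diet and 37.8% in Control libraries. Those at 1000 to 2000 kb held 22.1% in Diet and 25.5% in Control libraries, and those farther away 32.9% in Diet and 33.7% in Control libraries. Over all times the ranges overlap between diets in all 3 stretches. Minus-strand segments, which lie opposite to the J segments and join them by inversion, held 54.3% to 73.3% of kappa counts in Diet and 34.2% to 66.9% in Control libraries.

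**Figure D5:**
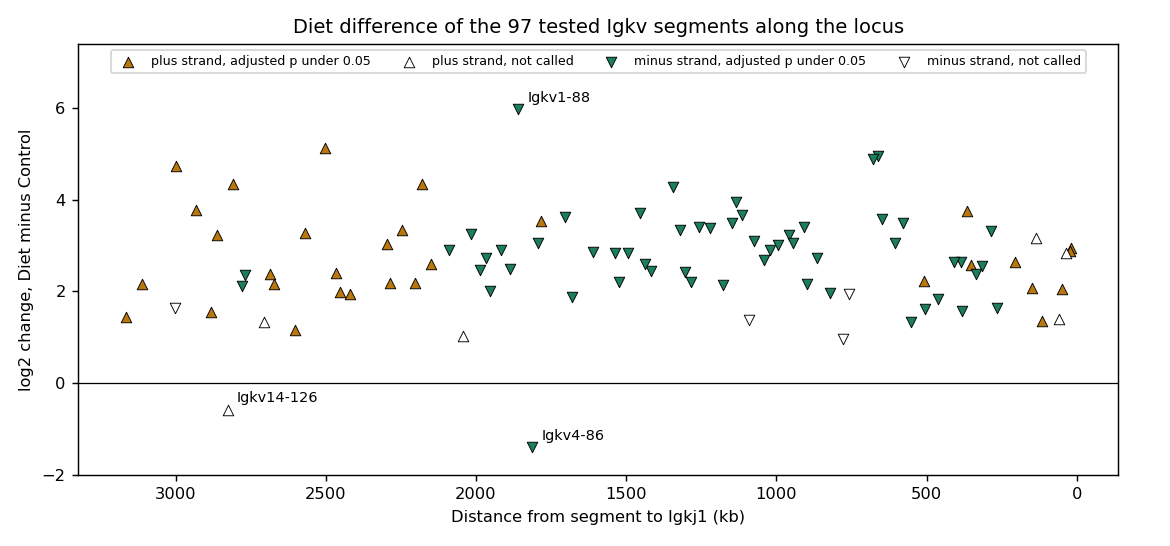
Log2 change, Diet minus Control over all times, of the 97 tested kappa segments against their distance from Igkj1 in kb. Triangles point up for the plus and down for the minus strand, and filled ones have an adjusted p under 0.05 (edgeR); all but Igkv4-86 and Igkv14-126 lie above 0.

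By subgroup, higher calls were found in nearly all. The largest, Igkv4, has 33 members, of which 27 were tested, 25 called higher and 1 lower. All 8 tested Igkv6 and all 9 tested Igkv8 segments were called higher, as were 6 of 7 tested Igkv1 segments. Igkv14, which holds Igkv14-126, had 3 of 4 called higher, and its summed level was 31.3 ± 14.2 CPM in Diet (SD, n = 12) and 16 ± 10.2 CPM in Control libraries (SD, n = 10). Igkv12 summed to 56.8 ± 19.2 CPM in Diet (SD, n = 12) and 8.7 ± 4.12 CPM in Control libraries (SD, n = 10).

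At single times fewer segments were called, with 2 or 3 libraries per group. At ZT0, 48 of 100 were called, all higher, against 30% of all tested genes called and 13.5% called higher. At ZT6 27 were called higher and 1 lower (30.1% of all genes called, 14.8% higher), at ZT12 34 higher (29.6% called, 14.3% higher) and at ZT18 40 higher (30.9% called, 15.3% higher). The ZT6 count was 10 without Control ZT6 replicate 1, 11 without Control ZT6 replicate 2 and 18 without Diet ZT6 replicate 1. The ZT12 count was 22 without Control ZT12 replicate 1 and 19 without Control ZT12 replicate 2. With 1 Control library left at a time, it is assumed to vary like the other groups. Among segments with the smallest p at single times were Iglv3, Iglv1, Igkv6-32, Igkv10-96, Igkv19-93 and Igkv4-72.

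Differences between times were few. In Control libraries 7 of the 100 segments were called (7%, against 5.74% of all tested genes, edgeR F test over the 4 times), namely Iglv3, Igkv3-2, Igkv4-55, Igkv4-72, Igkv19-93, Igkv6-20 and Igkv4-80. In Control libraries Igkv3-2 averaged 2.34, 1.85, 24.7 and 0.449 CPM in time order from ZT0 to ZT18, and its ZT12 libraries had 1.09 and 48.4 CPM. The count was 3 without Control ZT12 replicate 2 and 4 without Control ZT12 replicate 1. It was also 4 without Control ZT18 replicate 2, and 11 without both libraries that stood apart. The last of these fits called 1719 genes in all, against 1287 in the main fit. Under the diet 0 of the 100 were called in edgeR (1.08% of all tested genes), while 9 had an unadjusted p under 0.05 and the smallest adjusted p was 0.0607; DESeq2 was not run on this test. With 1 library left out the count under the diet was 0 to 2. The diet by time interaction was called for 2 of the 100 (0.959% of all tested genes), Igkv4-72 and Iglv1. Without both libraries that stood apart it was called for 3 segments, and for 1004 of all genes against 215 in the main fit.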

How the data were processed

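RNA of liver cells was measured in 22 libraries. The submitters' processing notes name STAR 2.7.9a, HTSeq, DESeq2 and the build GRCm38. The strand setting is not given in the sources used here, and reads from overlapping segments or antisense partners may be mixed. The deposited table holds whole-number counts per gene symbol for 55367 symbols, with no unnamed entry. A second deposited table of normalised values was not used. Groups came from the sample titles, and columns were matched to samples by description.

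Counts were tested with edgeR 4.0.16 (limma 3.58.1, R 4.3.3) on the whole table: filterByExpr with 8 groups kept 22409 genes, TMM scaling, glmQLFit and glmQLFTest on 1 mean per group of diet and time, with Benjamini-Hochberg adjustment over all tested genes and calls at an adjusted p under 0.05. The test was checked on simulated counts with the same spread for every gene and with changes planted in well-expressed genes only. Many tested segments have fewer counts or a wider spread, and the check does not cover these. The quasi-likelihood test gives no SE. The SE of a log2 change was obtained as its absolute value divided by the square root of the F of that test. V exon sequences and coordinates (1-based) are from GENCODE M21. Shares, inverse Simpson index and the rarefied number of segments are descriptions from raw counts.

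The segments, marker lists and tests were chosen with earlier results of these data known. Named segments are those first in a library, the 12 with the highest mean CPM, all Iglv, the 8 largest called changes in each direction, and up to 3 with the smallest p in each other test. Segments outside it (the 12 without overlap, those at 10% of counts, those not called, the other 2 called between times in Control, and B-1 partners) were named after their values were seen. Alternatives were RLE or library-size scaling, no filter, DESeq2 1.42.0 for the diet contrasts, a replicate block, pseudogenes left out and each library left out. Leaving out 2 Control libraries that stand apart was added with results known.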

Additional observations from a re-analysis of the deposited data

Results flagged for a closer look

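In 2 segments the difference between the diets varied with time, as tested by edgeR with an interaction of diet and time.

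Igkv4-72 had an adjusted p of 0.0195 for the interaction. In time order from ZT0 to ZT18 it averaged 6.39, 8.18, 3.61 and 12.5 CPM in Diet libraries and 1.35, 0.954, 2.58 and 0.268 CPM in Control libraries. The difference was thus smallest at ZT12, where the Diet mean was lowest and the Control mean highest. It was called in all 27 alternatives that gave this test, with an adjusted p of up to 0.0478.

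Iglv1 had an adjusted p of 0.0379 for the interaction. In the same order it averaged 55.9, 33.2, 25.9 and 38 CPM in Diet libraries and 5.63, 15.2, 13.5 and 10.5 CPM in Control libraries. Its Diet mean was highest and its Control mean lowest at ZT0. It was called in 14 of 27 alternatives, with an adjusted p of up to 0.0959, that without Diet ZT0 replicate 1. Causes were not tested. With 2 or 3 libraries a group, single libraries far from their group were not tested for.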

How the results depend on the processing

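The counts of segments called for diet over all times and at each time kept within 1.5 times their main value with RLE scaling, DESeq2 and scaling by library size alone, which shifts every log2 change by 0.18 (all tested genes then have a median of 0.26). DESeq2 called 88 segments over all times and, from ZT0 to ZT18, 55, 35, 47 and 55. Without a filter on low counts 148 segments were tested, and 48 were called at ZT6, 57 at ZT12 and 64 at ZT18. Between times 49 were called in Control and 17 under the diet, and 39 in the interaction. Over all genes that fit called 6452, 6356 and 6757 at these 3 single times, against 6752, 6641 and 6916 in the main fit. It called 2866 genes between times in Control, 1500 under the diet and 2085 in the interaction, against 1287, 241 and 215. In that fit 94 segments were called over all times, and the cause of the higher counts was not tested. Library-size scaling called 1 segment in the interaction. Without Control ZT0 replicate 2 and Control ZT18 replicate 1, 11 segments were called between times in Control, 1 under the diet and 3 in the interaction. Over all genes 1719, 632 and 1004 were then called, against 1287, 241 and 215 in the main fit. With 1 library left out, 82 to 91 segments were called for diet over all times, and from ZT0 to ZT18 34 to 50, 10 to 30, 19 to 38 and 32 to 43, with 3 to 8 between times in Control, 0 to 2 under the diet and 1 to 3 in the interaction. The kappa sum then differed by 2.01 to 2.24 and the lambda sum by 1.67 to 1.89 on the log2 scale, and the median share of the first segment by -3.54 to -1.8 percentage points. With kappa segments alone that share differed by -3.73. Of named segments, Igkv14-126 was called lower with no filter (-0.55, adjusted p = 0.0076, edgeR), Igkv4-61 lost its call without any 1 of 4 libraries (adjusted p 0.0525 to 0.0782), and no result reversed. Replicate numbers do not pair these samples: deviations of same-numbered libraries correlated at -0.14 to 0.14 and 3 of 22 libraries correlated best with their own number. With the replicate block, 89 segments were called over all times and 47, 26, 36 and 39 from ZT0 to ZT18, with 7 between times in Control, 0 under the diet and 2 in the interaction. V counts of 1358 to 8178 per Control library limit what can be said of segments with few counts there.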

Other observations

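The known light and heavy chain partners of mouse B-1 cells that bind phosphatidylcholine were set side by side after their values were seen. Ighv11-2, the partner of Igkv14-126, was the 1 heavy chain V segment called lower under the diet. It was 0.304, 0.902 and 2.95 CPM at its lowest, median and highest in Diet and 0.591, 1.6 and 8.41 CPM in Control libraries, a log2 change of -1.09 ± 0.38 (SE; edgeR adjusted p = 0.0207). Ighv12-3, the partner of Igkv4-91, changed by 0.79 on the log2 scale and was not called (edgeR adjusted p = 0.301).

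Across libraries the level of each light chain segment was correlated with that of its partner within each diet, 4 relations in all. Levels were log2(CPM + 0.1), and two-sided permutation tests used 100000 resamples. Libraries were permuted over all times of a diet, so these p-values do not separate differences between times from those within a time. The pairs were chosen after their values were seen, and no other light and heavy pairs were correlated for reference. Bulk levels do not show which chains share a cell, and the part of B cell number in these relations was not tested. In the 10 Control libraries Igkv14-126 and Ighv11-2 had Pearson's r = 0.93 (permutation p = 0.00144, adjusted 0.00576) and Spearman's rho = 0.84 (p = 0.00388, adjusted 0.0155). Without the 2 libraries farthest from the median of Igkv14-126, r was 0.59, so the relation rests in part on those. In the 12 Diet libraries r was 0.39 (permutation p = 0.204, adjusted 0.271) and rho 0.41 (p = 0.193, adjusted 0.385), and r was 0.79 without the 2 farthest. Igkv4-91 and Ighv12-3 had r = 0.57 (permutation p = 0.0545, adjusted 0.109) and rho = 0.10 (p = 0.765, adjusted 0.765) in Diet and r = 0.04 (p = 0.879, adjusted 0.879) and rho = 0.21 (p = 0.558, adjusted 0.743) in Control libraries. Without the 2 farthest, r was -0.48 in Diet and -0.18 in Control libraries. Control ZT18 replicate 1, which stood apart in all genes, had the highest Igkv14-126 level.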
